A study of Drosophila melanogaster with 7 samples.

Results

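The genes described here are the 3 dosage compensation genes roX1, roX2 and msl-2, found by their symbols in the authors' deposited comparison of ISWI knockdown with control, where they make up 3 of 2366 genes. RNA was taken from the dissected brain and ventral nerve cord of mid-third instar larvae of Drosophila melanogaster, raised for 4 days at 25 °C after the eggs were laid. The knockdown group (elav-GAL4>UAS-ISWI RNAi, 4 libraries) carried the pan-neuronal driver elav-GAL4 and a UAS hairpin that targets Iswi, which encodes the ATPase of several nucleosome remodelling complexes. The control group (elav-GAL4; +, 3 libraries) carried the driver without the hairpin per the labels, so both groups have elav-GAL4. The deposited comparison names this control attp2, so its exact genotype is not settled here. Each library pooled about 40 dissected brains, and the labels do not give the sex of the larvae. The driver is used as a pan-neuronal one, and such pools also hold glia and progenitor cells. A change in a whole pool cannot be told apart as more cells of a type or more RNA per cell.

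In flies, males raise transcription of their single X chromosome to match the paired X chromosomes of females. This is done by the male-specific lethal (MSL) complex, whose proteins MSL-1, MSL-2, MSL-3, MOF and MLE act with either of the noncoding RNAs roX1 and roX2, and MOF acetylates histone H4 at lysine 16 along the X. Both roX RNAs are made from the X and are abundant in males. MSL-2 is made in males only, because Sex-lethal (Sxl) blocks splicing and translation of its message in females. Loss of ISWI, or of its NURF complex, is known to give a bloated male X chromosome in the polytene nuclei of the larval salivary gland.

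Iswi RNA, the target of the hairpin, had a log2 fold change of -2.03 in the authors' deposited table, so that 24.6% of the control amount remained (adjusted p 5.1e-230). That table holds genes with p under 0.1 only. Its adjusted p values imply 10775 tested genes, of which 501 (4.65%) had an adjusted p under 0.05, the threshold for a call here. By direction, 222 genes of the authors' deposited table (2.06% of those tested) were higher and 279 (2.59%) lower with the knockdown. No value per library was used here, so depth is unknown, and replicate error is seen only as far as the authors' p reflects it. The labels call the libraries biological replicates without saying whether they came from separate crosses, so that error may be partly technical.

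roX2 had the largest fold change of the 3 members, and roX1 the largest difference in counts. This noncoding RNA (FBgn0019660, X chromosome, 11579065 to 11580432, plus strand, build BDGP6) had a mean normalised count of 518 over all libraries in the authors' deposited table, where counts are divided by size factors. That mean and fold change correspond to 696 counts in the knockdown group and 282 in the control group. roX2 rose by 1.30 in log2 units in the authors' deposited table, and its p implies a standard error of 0.16. The fold change of roX2 was 2.47, with a 95% interval from 1.98 to 3.08 derived from the authors' deposited table (adjusted p 4.7e-13). By adjusted p it stood in place 24 of the authors' deposited table, and by size of change it was in place 70 among the 222 genes called higher.

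roX1, the more abundant of the roX RNAs per kilobase, rose by a smaller factor. Its gene (FBgn0019661, X chromosome, 3857230 to 3862697, minus strand, build BDGP6) had a mean normalised count of 29037 in the authors' deposited table, place 17 of 2366 by mean count. The deposited mean and fold change correspond to 32043 counts in the knockdown group and 25029 in the control group. roX1 rose by 0.36 in log2 units in the authors' deposited table (adjusted p 0.006), and the implied standard error was 0.09. Its fold change was 1.28, with a 95% interval from 1.13 to 1.46 derived from the authors' deposited table. With the stricter Bonferroni adjustment over all tested genes roX1 was no longer called, with an adjusted p of 1, while roX2 still was. When the ratio of fold change to error was read on 5 degrees of freedom instead, neither was called (adjusted p 0.49 for roX1 and 0.21 for roX2), and 5 genes of the whole table passed.

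msl-2 encodes the RING finger protein of the complex and lies on an autosome (FBgn0005616, chromosome 2L, 3462218 to 3466112, minus strand, build BDGP6). It had a mean normalised count of 1269 in the authors' deposited table, which corresponds to 1346 counts in the knockdown group and 1167 in the control group. Its log2 fold change was 0.21 in the authors' deposited table, with an implied standard error of 0.08 and a 95% interval from 0.05 to 0.36. Its adjusted p, 0.11 in the authors' deposited table, did not pass the threshold. Relative to the median of listed genes whose mean count reached 50, which was -0.14, msl-2 stood at 0.34 and passed (adjusted p 0.00014), but that median comes from genes with p under 0.1 only. At the deposited values 2 of the 3 members were called higher and 0 lower, against the 2.06% of all tested genes called higher. All 3 being in a table that holds 21.5% of the tested genes is a property of how that table was limited, and the members were picked with its values known.

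**Figure D1:**
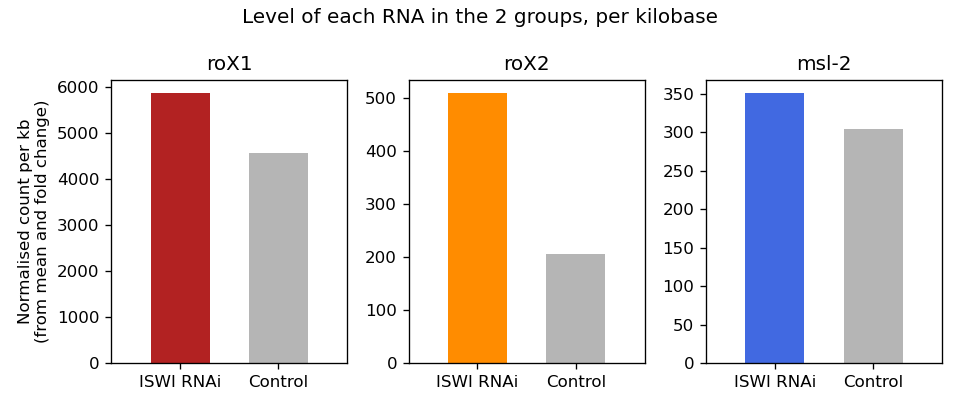
Bars give the normalised count per kilobase of each RNA in ISWI RNAi and control libraries, worked out from the deposited mean and fold change, with a separate axis for each gene and no error bars. roX2 stands at 508 with knockdown against 206 in control, roX1 at 5860 against 4577 and msl-2 at 350 against 304.

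Per kilobase of the length given in the authors' deposited table, roX1 was the most abundant of the 3. Its level came to 5860 normalised counts per kilobase in the knockdown group and 4577 in the control group. For roX2 the same quantity was 508 in the knockdown group and 206 in the control group, and for msl-2 it was 350 in the knockdown group and 304 in the control group. The order roX1, roX2, msl-2 held in the knockdown group, whereas in the control group msl-2 lay above roX2 at the deposited lengths. The roX1 level per kilobase was 11.5 times that of roX2 in the knockdown group and 22.2 times in the control group. In absolute terms roX1 gained 1283 counts per kilobase and roX2 gained 302. These ratios depend on the length used. The deposited length of roX2, 1368 bases, is that of its unspliced transcript, while the spliced transcript roX2-RA of the reference annotation has 562 bases of exon. With that length roX2 came to 1238 counts per kilobase in the knockdown group and 501 in the control group, above msl-2 in both groups, and the roX1 level was 4.73 times that of roX2 in the knockdown group and 9.13 times in the control group. The deposited length of roX1, 5468 bases, spans the whole gene and exceeds each of its annotated transcripts, which hold 3460 to 4832 bases of exon. With the shortest of these and roX2-RA, the roX1 level was 7.48 times that of roX2 in the knockdown group and 14.4 times in the control group.

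The 95% intervals of the 2 roX RNAs do not overlap in the authors' deposited table. That of roX2 begins at 0.98 on the log2 scale and that of roX1 ends at 0.54, a difference of 0.95 between the fold changes themselves. Both RNAs come from the same libraries, and how their errors vary together is not in the table, so the difference itself was not tested. The interval of msl-2, which ends at 0.36, overlaps that of roX1, which begins at 0.17, and lies wholly below that of roX2.

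roX1 differed in direction from most called RNAs among the genes nearest to it in abundance in the authors' deposited table. Its 100 nearest listed genes covered a wide range of mean counts, from 7397 to 82587. Of these 100 genes 21 were called, 20 of them lower and 1 higher. Of all 2366 listed genes 501 were called, 222 of them higher and 279 lower, which are 2.06% and 2.59% of all tested genes. The number of calls near roX1 is therefore no result, and only their direction is described. That one was HmgZ, which encodes an HMG-box chromatin protein and rose by 0.30 in the authors' deposited table. Calls whose mean count reached 5000 numbered 36 in the authors' deposited table, roX1 included, of which 7 were higher and 29 lower. Around roX2 the 100 nearest genes, with mean counts from 471 to 571, held 5 higher and 9 lower calls. The absolute log2 fold change of each of the 100 was below that of roX2, with 0.54 the highest. msl-2 was closer to its surroundings, with 72 of its 100 nearest genes showing a smaller absolute fold change.

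**Figure D2:**
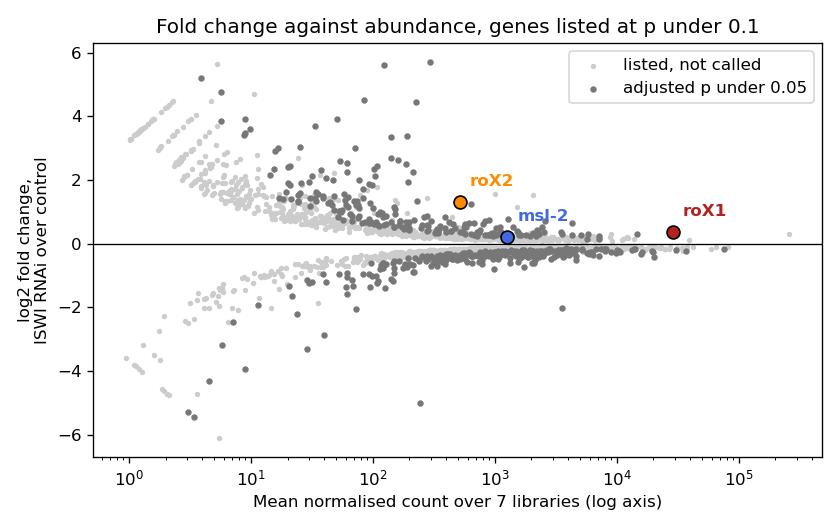
Each point is a gene of the deposited table, with the mean normalised count on a log axis and the log2 fold change of ISWI RNAi over control on the other. Dark points have an adjusted p under 0.05, and the band around 0 is empty because the table ends at p under 0.1. roX2 lies at 1.30, roX1 at 0.36 among mostly lower abundant genes, and msl-2 at 0.21.

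In size of change, the nearest called genes to roX2, taking those whose mean count reached 50, were ppk13, a DEG/ENaC channel gene, at 1.27 and CG11349 at 1.34 in the authors' deposited table. Those next to roX1 were CG11307 at 0.35 and Cyp12a4, a cytochrome P450 gene, at 0.36 in the authors' deposited table. For msl-2 they were vsg at 0.16 and CG14967 at 0.22. This order rests on a single contrast, so it says nothing of likeness across libraries.

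The fold changes of the 2 roX RNAs had larger errors than those of most listed genes nearest to them in mean count. For roX1 these genes cover the wide range given above. The implied standard error of roX1 was 0.094, against a median of 0.058 for its 100 nearest genes in mean count, and 98 of those genes had a smaller one. For roX2 it was 0.163 against a median of 0.098, and 97 of 100 genes had a smaller one. Dscam1 and Aldh were the genes above roX1, and kkv, Pvr and h those above roX2. msl-2 had an error of 0.077 against a median of 0.077, with 48 of 100 genes below it. At a fixed p a larger fold change implies a larger error, and the table lists only p under 0.1, so these places describe the listed genes and not all genes. Which libraries carry the spread cannot be read from the table.

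**Figure D3:**
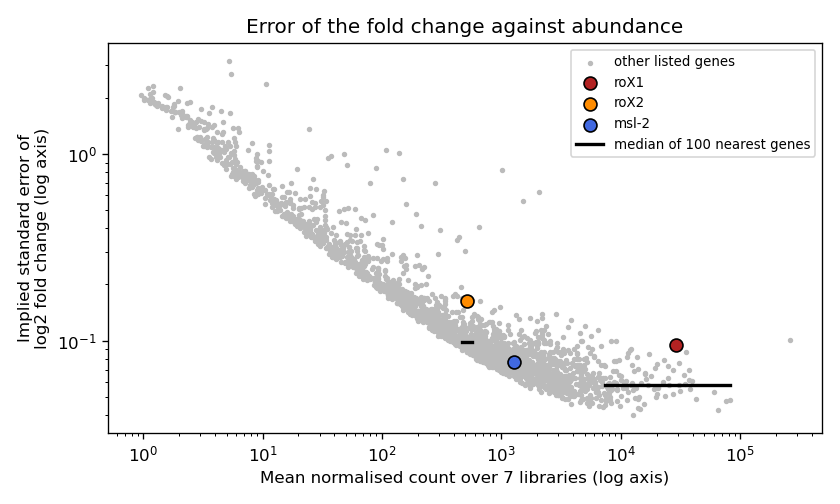
The implied standard error of the log2 fold change is plotted against mean normalised count, both on log axes, for every listed gene. roX1 (0.094) and roX2 (0.163) lie above the bars that mark the median error of their 100 nearest genes (0.058 and 0.098), and msl-2 lies on its own bar at 0.077.

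Among the other subunits of the complex, msl-1, the scaffold that MSL-2 binds, was listed in the authors' deposited table at 0.18 (adjusted p 0.33). msl-3, which encodes the chromodomain reader of active genes, mof (the acetyltransferase) and mle (the helicase that remodels the roX RNAs) were not in the authors' deposited table. Of the 7 genes of the MSL complex, then, 2 (28.6%, against 2.06% of all tested genes) were called higher and 0 lower. Those calls are roX1 and roX2 themselves, so the count is no separate result about the complex. The 4 listed genes are the 3 members and msl-1. All had positive fold changes with a median of 0.28, which mostly restates the values of the members. Of all listed genes 48.4% were positive, with a median of -0.10. A gene that is not listed had p of at least 0.1 or was left out of the authors' tests, which does not show that it stayed the same.

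Of 11 genes for recruitment of the complex and for chromatin that works with it, 2 were listed (18.2%, against 21.5% of all tested genes) and 1 was called (9.09%, against 4.65%), shares that in so short a list move with a single gene. Top2, which encodes DNA topoisomerase II, in the authors' deposited table fell by 0.21 (implied standard error 0.06, adjusted p 0.0068). JIL-1, the histone H3 kinase enriched on the male X, was listed at 0.14 in the authors' deposited table (adjusted p 0.40). Clamp and Trl, the zinc finger proteins that bind GA-rich sites, were among the 9 not listed. Of 5 regulators of the msl-2 message, how, an RNA-binding protein gene, was listed at 0.16 in the authors' deposited table (adjusted p 0.33). Sxl, Unr, Hrb27C and snf were not listed. None of the 6 genes of the NSL complex, the other complex that holds MOF, was listed, against 21.5% of all tested genes. Of the 4 genes of NURF, Iswi was the only call (25%, against 4.65% of all tested genes). Iswi is the target of the hairpin, so this count is no result about NURF. E(bx), the largest subunit of NURF, was listed at 0.18 (adjusted p 0.33) and Nurf-38 at -0.16 (adjusted p 0.20) in the authors' deposited table. Caf1-55 was not listed.

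**Figure D4:**
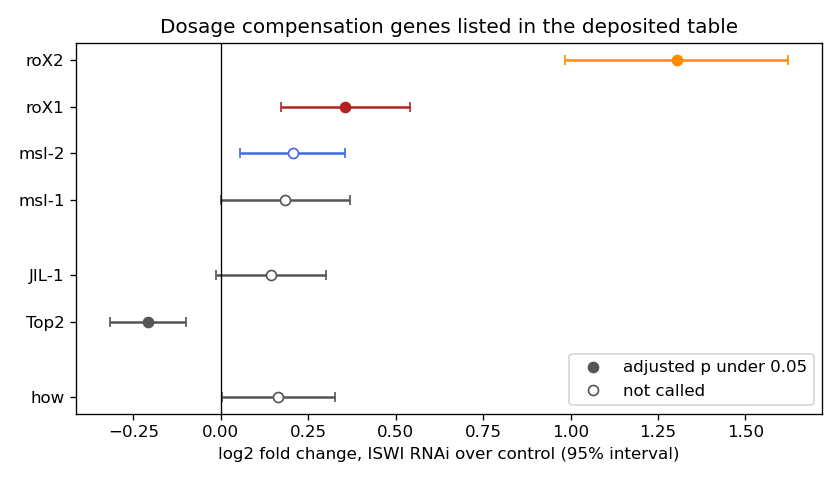
Points give the deposited log2 fold change of ISWI RNAi over control with its implied 95% interval for listed genes of the MSL complex (top), of recruitment and chromatin partners (middle) and of msl-2 regulation (bottom). Filled points have an adjusted p under 0.05, namely roX2 at 1.30, roX1 at 0.36 and Top2 at -0.21.

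The annotation of msl-2 holds a pair of transcripts that differ by an intron of 133 bases upstream of the coding sequence (chromosome 2L, 3465919 to 3466051, minus strand, build BDGP6). The transcript msl-2-RA retains it and msl-2-RB does not. It is the intron whose splicing Sxl is known to block in females. The authors' deposited table has 1 value for the gene, so the fold change of 0.21 covers both forms and says nothing of their ratio. The roX genes have 5 (roX1) and 6 (roX2) annotated transcripts, again with 1 value each.

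The share of called genes in the sex determination pathway, 1 of 17 or 5.88%, was near the 4.65% of all tested genes. The call was tra (transformer), which fell by 0.39 in the authors' deposited table (adjusted p 0.0089) and whose functional protein is made in females. dpn and da, which take part in reading the number of X chromosomes in the early embryo, were listed at -0.19 (adjusted p 0.12) and 0.12 (adjusted p 0.44) in the authors' deposited table. Sxl, dsx and fru were not listed. Of a list of 4 genes made of dsx-c73A and the yolk protein genes, 1 was called (25%, against 4.65% of all tested genes). That was dsx-c73A, which fell by 5.02 in the authors' deposited table (adjusted p 1.3e-109). The yolk protein gene Yp3 was listed at 2.14 (adjusted p 0.25, mean count 37.1). Of 12 genes on the Y chromosome, 0 were listed in the authors' deposited table. Genes left out of the authors' tests are not listed either, so this says nothing of the sex of the larvae. The share of males in each pool is not given, and its part in the roX values was not tested.

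Few of the genes beside the members were listed. Within 50 kb of the 3 members the reference annotation has 63 genes, of which 7 were listed and 3 called in the authors' deposited table. The called share, 4.76% of the annotated genes, was near the 4.65% of all tested genes. How many of the 63 were tested is not known, so these shares have unlike totals. The number of calls near the members is therefore taken as no result about them. None of the 10 neighbours of roX1 was listed. One of these, ec (echinus), lies on the opposite strand and overlaps the end of roX1 by 392 bases. The kit kept strand, but the sources used here do not say whether counting used it.

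The nearest genes of roX2, CG11695 and nod, at 259 and 340 bases, were not listed. Of its 28 neighbours 6 were listed, and 5 of these had a negative fold change in the authors' deposited table. Among these 5 are 4 that belong to a row of 7 annotated pseudogenes downstream of roX2 on the same strand (X chromosome, 11586228 to 11599638, build BDGP6). CR43217, at 5796 bases from roX2, in the authors' deposited table fell by 0.66 (implied standard error 0.14, adjusted p 0.00023, mean count 183). CR43215, at 8944 bases, in the authors' deposited table fell by 1.33 (implied standard error 0.40, adjusted p 0.024, mean count 20.7). CR43214 and CR43211 were listed at -2.02 and -0.29 with adjusted p of 0.12 and 0.44 in the authors' deposited table, and the other 3 were not listed. Of the 7 pseudogenes 6 span 1891 bases each. If such copies share sequence, reads can be split between them, so their single values are uncertain. The protein-coding neighbours CG11699 and CG11696 were listed at 0.18 and -0.16 and were not called.

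Near msl-2, 1 of 25 neighbours was listed. This was tim (timeless), the clock gene, which lies 27874 bases upstream and in the authors' deposited table rose by 0.73 (implied standard error 0.18, adjusted p 0.0029). mir-4971, which lies inside msl-2, and ND-PDSW and CG3246, at 45 and 266 bases from it, were not listed.

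**Figure D5:**
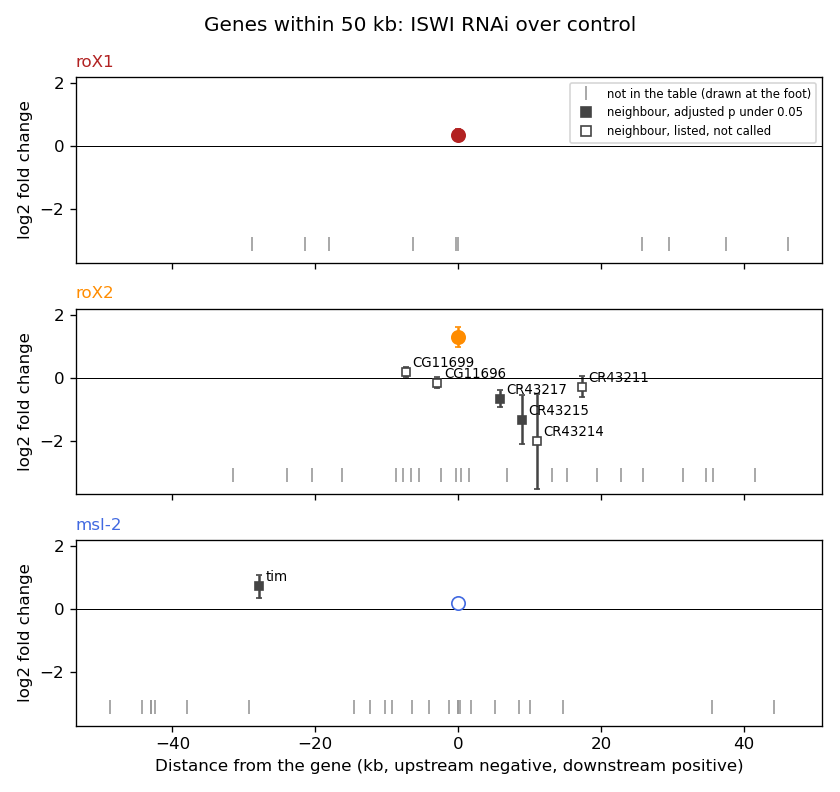
Log2 fold changes of ISWI RNAi over control with implied 95% intervals are plotted against distance from each member in kilobases, and ticks at the foot mark neighbours that are not listed. Filled symbols have an adjusted p under 0.05. Next to roX2 at 1.30 the called neighbours CR43217 and CR43215 stand at -0.66 and -1.33, and near msl-2 tim stands at 0.73.

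The rise of the roX RNAs ran against the direction of most listed genes of their chromosome. Of 338 X-linked genes of the authors' deposited table other than the roX genes, 117 (34.6%) had a log2 fold change above 0, against 1015 of 1996 (50.9%) on the major autosome arms. In the authors' deposited table the X without the roX genes held 19 higher calls and 45 lower ones, against 200 and 225 on the major autosome arms. Over all tested genes 2.06% were called higher and 2.59% lower. The number of genes tested on the X is not known, so its own shares cannot be given. Within 1 Mb of roX1 13 of 28 listed genes were positive, and within 1 Mb of roX2 11 of 31 were. In the authors' deposited table their median log2 fold changes were -0.13 and -0.15, against -0.16 for the X without the roX genes. Near roX1 the sign depended on the window, since within 500 kb 9 of 15 listed genes were positive with a median of 0.13.

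Among noncoding genes and pseudogenes of the X, the authors' deposited table held 9 calls, 4 of them higher and 5 lower. The higher ones of the authors' deposited table besides roX1 and roX2 were CR44053, which rose by 2.01 at a mean count of 76.8, and CR44568, which rose by 3.86 at a mean count of 5.74. Of the lower noncoding RNAs in the authors' deposited table, CR40469 fell by 0.41 and CR45473 by 0.95, and the lower pseudogenes were CR43217, CR43215 and 28SrRNA-Psi:CR40741. Over all chromosomes 126 noncoding RNAs were listed and 42 called, 29 of them higher and the rest lower. Of the 29, 18 had a larger change than roX2. Over all tested genes 2.06% were called higher and 2.59% lower. How many noncoding RNAs were tested, on the X or in all, is not known. Called noncoding RNAs with a mean count at least that of roX2 numbered 9 in the authors' deposited table, roX2 included.

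Few markers of the labelled tissue were listed. Of 7 neuronal markers Syx1A was listed at 0.18 (adjusted p 0.39), of 4 neuroblast markers dpn was listed as given above, and of 4 glial markers the authors' deposited table held 0. Of 8 hemocyte markers 6 were listed (75%, against 21.5% of all tested genes), at log2 fold changes from 0.96 to 1.54. Col4a1 and vkg were not listed. NimC1 and Pxn were called higher in the authors' deposited table (25% of the 8, against 2.06% of all tested genes). Hml, He, srp and eater were not called. The summed level of the 6 listed genes came to 4206 normalised counts in the knockdown group and 1559 in the control group, worked out from the deposited means. Of these, Hml alone made up 2877 and 991. Only genes with p under 0.1 entered the sum, so a difference between the groups was built into it. Of 5 germline markers 1 was called (20%, against 4.65% of all tested genes), namely piwi, which rose by 1.85 in the authors' deposited table. The listed germline markers did not share a direction. aub was listed at -0.40 (adjusted p 0.29) at a mean count of 101, against 98.1 for piwi. nos was listed at 1.85 (adjusted p 0.43) at a mean count of only 4.28. vas and bam were not listed. None of 5 fat body markers was listed. The part of these cells in the roX values was not tested.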

How the data were processed

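RNA was read as single reads of 100 bases from libraries made with a strand-specific kit, per the labels' protocols. The submitters' processing notes name STAR 2.5.0b, build BDGP6 and DESeq2. The sources used here do not say how counts per gene were made. Per the file headers, the deposited table gives a base mean (a signal: the mean of counts divided by size factors), a log2 fold change (ISWI over control) by the authors, and the deposited p-value and adjusted p-value. The control is named attp2 in the header and elav-GAL4; + in the labels. The number of tests follows from p, its rank and the adjusted p. The adjusted p is 1 for 54 more genes, all of low count, which were taken as not tested.

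No model was refitted. Standard errors were worked out by taking p as that of a Wald test, with 95% intervals from them. Group levels were worked out from base mean, fold change and library numbers, taking the fold change as unshrunken. The arithmetic of these steps was checked on data simulated with the same formulas (Python 3.11.15, scipy 1.17.1). That check cannot show whether the deposited p is from a Wald test or the deposited fold change is unshrunken. Positions missing in 9 rows were filled for 8 from Ensembl release 115, whose positions for the 3 members are the same. The 3 members and all lists were chosen with earlier results of these data known. Genes named are the members, every listed gene of the lists, listed genes within 50 kb, calls next to a member in fold change, and called noncoding genes and pseudogenes of the X. Others (HmgZ, the genes with larger errors, and neighbours that are not listed) were chosen after their values were seen.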

Additional observations from a re-analysis of the deposited data

How the results depend on the processing

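No paired analysis was possible because the deposited table has 1 value per gene and comparison, and for the same reason no library could be left out. The calls of roX1 (0.36) and roX2 (1.30) were the same at adjusted p thresholds of 0.01 and 0.1. With Bonferroni adjustment roX1 at 0.36 lost its call (adjusted p 1), and 170 of the 501 calls over all genes passed. With the Wald ratio read on 5 degrees of freedom both lost theirs, roX1 at 0.36 (adjusted p 0.49) and roX2 at 1.30 (adjusted p 0.21), and 5 calls passed over all genes. Over the alternatives the adjusted p ran from 7.1e-06 to 1 for roX1 and from 3.9e-16 to 0.21 for roX2. Listed genes whose mean count reached 50 had a median log2 fold change of -0.14. Relative to it roX1 stood at 0.49, roX2 at 1.44 and msl-2 at 0.34, where msl-2 passed (adjusted p 0.00014). That median comes from a table limited to p under 0.1 and is no scaling of all genes. In the other planned settings msl-2 was not called, with adjusted p from 0.11 to 1. At an absolute log2 fold change of at least 1, calls numbered 1 of the 3 found among 18 genes of the MSL complex and its partners (roX2), 1 of 2 among 30 other dosage compensation and sex determination genes (dsx-c73A), and 1 of 3 among neighbours (CR43215). The share of all tested genes that pass this cut is not given, so these counts are no result about the lists. Without the cut, neighbour calls numbered 2 within 20 kb and 4 within 100 kb. Within 50 kb they numbered 3 of 63 annotated genes (4.76%), against 4.65% of all tested genes. Shares for the 20 and 100 kb windows are not given, so their counts are no result about the neighbours. The comparisons of errors, transcript lengths and distance on the X, with all their settings, were added after seeing the data. The errors of roX1 and roX2 were 1.60 to 1.62 and 1.65 to 1.67 times the median of their 50, 100 or 200 nearest genes. The median of X-linked genes near roX1 turned to 0.13 within 500 kb, and the cause was not tested.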
